A study of Mus musculus with 30 samples.

Results

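This account covers the R-spondins and their LGR receptors, 7 genes taken by name (*Rspo1*, *Rspo2*, *Rspo3*, *Rspo4*, *Lgr4*, *Lgr5* and *Lgr6*) among the 50833 genes of the deposited count table. All 7 passed the filter on low counts at all 5 time points. PolyA RNA was sequenced from forelimb buds of wild-type Swiss Albino mouse embryos, whose mothers received 1 intraperitoneal injection at E10.5. DMSO in saline was the control injection, and the other females received Wnt-C59 (C59), which inhibits porcupine, an enzyme that WNT ligands need for secretion. Per the methods C59 was diluted in a solution with methylcellulose and Tween-20, which are not listed for the control injection. The part of this solution in the differences was not tested. Forelimb buds were collected 1, 6, 12, 18 and 24 h later, giving 10 groups of 3 libraries. The methods give 1 pair of forelimb buds for each replicate, from embryos of both sexes. C59 reached the whole embryo through the mother, and a library holds ectoderm, mesenchyme and all other cells of the bud, so that in these bulk samples fewer cells of a type and less RNA per cell cannot be told apart. The study placed *Rspo1*, *Rspo4*, *Lgr5* and *Lgr6* on a panel of WNT pathway genes chosen on these same libraries, so their decrease is not independent evidence.

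R-spondins are secreted proteins that make cells more responsive to WNT ligands. They bind an LGR receptor (LGR4, LGR5 or LGR6) together with ZNRF3 or RNF43, membrane ubiquitin ligases that otherwise remove Frizzled and LRP receptors from the cell surface, and so keep the WNT receptors in place. RSPO2 and RSPO3 can also act without an LGR receptor through heparan sulfate proteoglycans, and RSPO2 is known for its requirement in limb outgrowth, whereas LGR5 is best known as a stem cell marker and, like ZNRF3, RNF43 and AXIN2, is encoded by a gene that canonical WNT signaling activates in many tissues.

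In GENCODE M21 (GRCm38) the R-spondin genes lie at chr4:124986430-125009099 (+, *Rspo1*), chr15:43020794-43170826 (-, *Rspo2*), chr10:29452416-29535867 (-, *Rspo3*) and chr2:151842927-151874668 (+, *Rspo4*), and the receptor genes at chr2:109917647-110014257 (+, *Lgr4*), chr10:115450311-115587780 (-, *Lgr5*) and chr1:134983301-135105276 (-, *Lgr6*). Promoter sequence for 4 of the 7 genes was in the RefSeq table used (GRCm38.p6), and *Rspo2*, *Rspo3* and *Lgr5* were missing from it. The 250 bases before the transcription start are printed because 3 of these genes (*Rspo1*, *Rspo4* and *Lgr6*) decreased after C59 and the fourth (*Lgr4*) increased. The windows lie at chr4:124986180-124986429 (+) for *Rspo1*, chr2:151842677-151842926 (+) for *Rspo4*, chr1:135105277-135105526 (-) for *Lgr6* and chr2:109917397-109917646 (+) for *Lgr4*. Capitals mark the E-box CACGTG and the CCAAT box, and all letters are given 5′ to 3′ on the strand of the gene.
Rspo1: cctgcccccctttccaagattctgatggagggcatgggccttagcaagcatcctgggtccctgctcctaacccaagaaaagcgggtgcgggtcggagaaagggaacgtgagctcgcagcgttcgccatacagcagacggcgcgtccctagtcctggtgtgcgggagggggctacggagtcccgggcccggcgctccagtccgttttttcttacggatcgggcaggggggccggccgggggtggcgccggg
Rspo4: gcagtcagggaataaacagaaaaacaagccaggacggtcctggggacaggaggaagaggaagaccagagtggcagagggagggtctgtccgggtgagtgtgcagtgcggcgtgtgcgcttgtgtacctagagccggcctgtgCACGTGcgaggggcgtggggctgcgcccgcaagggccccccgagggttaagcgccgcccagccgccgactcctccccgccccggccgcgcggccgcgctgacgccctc
Lgr6: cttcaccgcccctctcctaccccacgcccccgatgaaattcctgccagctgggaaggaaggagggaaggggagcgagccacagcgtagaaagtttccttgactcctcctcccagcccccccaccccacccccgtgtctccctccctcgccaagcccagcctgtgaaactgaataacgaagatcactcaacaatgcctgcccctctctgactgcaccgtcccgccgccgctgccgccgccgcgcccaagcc
Lgr4: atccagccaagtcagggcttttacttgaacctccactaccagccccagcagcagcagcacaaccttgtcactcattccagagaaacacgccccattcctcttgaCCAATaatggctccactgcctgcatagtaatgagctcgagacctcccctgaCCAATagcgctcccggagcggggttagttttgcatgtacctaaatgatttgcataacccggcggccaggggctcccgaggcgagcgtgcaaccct
The core letters of a TCF/LEF site, CTTTGAT or CTTTGAA on either strand, were in none of the 4 windows, and they were in 3.21% and 4.46% of the 32851 RefSeq windows of this length. That result says only that these letters are not in these 250 bases. CACGTG occurred 1 time before *Rspo4*, against 6.02% of all windows with a match, and CCAAT occurred 2 times before *Lgr4*, against 33.8% of all windows. The *Rspo4*, *Rspo1* and *Lgr6* windows had a GC content of 69.6%, 66.8% and 65.2%, and that of *Lgr4* 55.6%, beside a median of 52.4% over all windows. The motifs were picked after values of these genes had been seen, and a match is not evidence of binding.

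The 30 libraries held 18188636 to 38974885 counts, of which 2499 to 6165 per library fell on the 7 genes. *Lgr6* had the fewest, 18 to 132 counts per library, and *Lgr4* the most, 1062 to 3188. The third C59 library of 18 h stood apart from its group: its counts differed from the other 2 with a chi-square per degree of freedom of 47.6 and 39.9, against 3.21 to 18.9 over all other replicate pairs, and the values of 18 h without it are given beside those with it. The forelimb gene *Tbx5* had a median of 55.4 FPKM (fragments scaled to transcript length and library size), against 3.51 for *Tbx4* and 0.465 for *Pitx1*, the hindlimb genes, and the mesenchyme gene *Prrx1* had 112. Summed FPKM of 4 Y-linked genes were 19.8 to 33.2 in the C59 libraries of 6 h and 0 in the DMSO libraries of 6 h, and 21.2 to 38.2 against 0.0469 to 9.03 at 1 h. At these time points C59 treatment and the sex of the embryos cannot be told apart. At 12, 18 and 24 h each DMSO group held libraries with and without Y-linked RNA. The C59 groups of 12 h and 18 h did so too. All C59 libraries of 24 h had Y-linked RNA, 19.3 to 25.0 against 0.0147 to 20.1 in DMSO, so sex was not balanced between the treatments at 24 h.

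Length-corrected levels ranked the 7 genes differently at the start and at the end of the day. In DMSO libraries of 1 h *Rspo4* made up 51.6% ± 0.669 (SD, n = 3) of the summed R-spondin FPKM, *Rspo3* 15.2% ± 0.976 and *Rspo1* 13.9% ± 1.76, with *Rspo2* at 17.6% to 20.3%. By 24 h *Rspo3* held 45.1% ± 1.78, *Rspo1* 35.1% ± 4.01, *Rspo2* 12.8% ± 1.46 and *Rspo4* 5.69% to 7.99%. Among the receptors *Lgr4* was the main transcript in every library, with 81.3% to 96.2% of the summed LGR FPKM. *Lgr5* held 2.87% to 15.7% and *Lgr6* 0.903% to 6.61%.

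**Figure D1:**
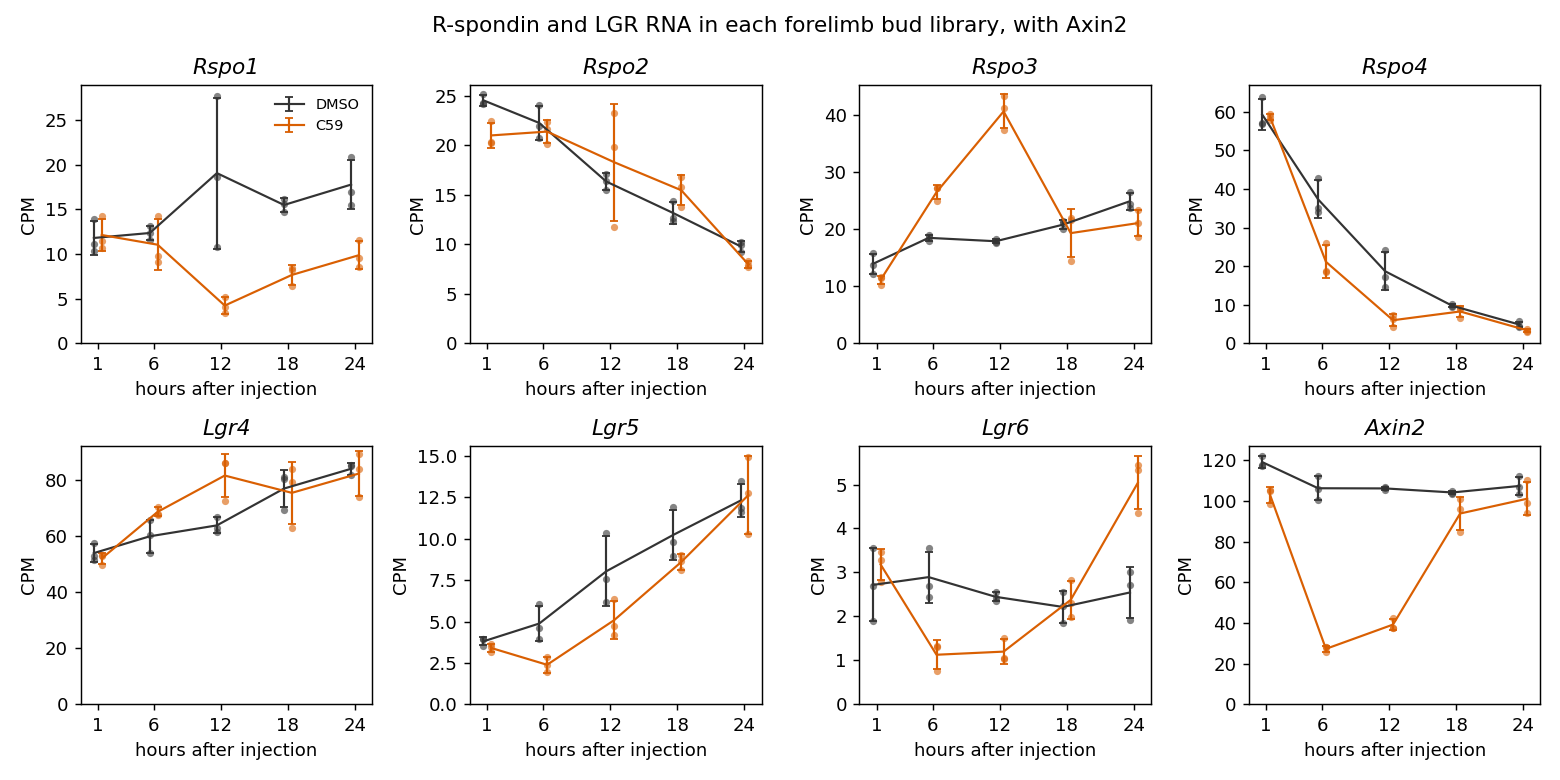
CPM (counts scaled to TMM-normalized library size) against hours after injection for the 7 genes and *Axin2*, in DMSO (grey) and C59 (orange) libraries; points are libraries, lines join group means, and error bars show the SD of 3 libraries. *Rspo4* falls over time in both treatments, *Rspo3* peaks in C59 at 12 h (37.5 to 43.3 CPM), and *Lgr5* climbs from 3.53 to 3.95 CPM at 1 h to 11.6 to 13.5 CPM at 24 h in DMSO.

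In control forelimb buds 6 of the 7 genes changed between 1 h and 24 h (edgeR quasi-likelihood test, adjusted p below 0.05), and 3 of them by more than 1 on the log2 scale, beside 56.5% and 12.1% of all 13716 genes tested. *Rspo4* had 56.9, 57.1 and 63.9 CPM at 1 h and 4.36, 5.75 and 4.58 CPM at 24 h. It decreased 12.0-fold (log2 fold change -3.58 ± 0.15 SE, adjusted p = 6.39e-12 in edgeR), and its decrease passed the test in each of the 4 steps between neighbouring time points, with log2 fold changes of -0.67, -0.98, -0.92 and -1.01. No other member passed in all 4 steps. *Rspo2* went from 25.2, 24.2 and 24.3 CPM to 9.21, 9.96 and 10.3 CPM (-1.31 ± 0.08, adjusted p = 4.28e-10), and its steps from 6 to 12, 12 to 18 and 18 to 24 h passed. *Lgr5* moved the other way, from 3.95, 3.53 and 3.92 CPM to 11.6, 11.8 and 13.5 CPM (1.70 ± 0.18, adjusted p = 5.01e-07). Smaller increases were those of *Rspo3* (0.85 ± 0.08, adjusted p = 8.70e-08), *Lgr4* (0.64 ± 0.08, adjusted p = 1.51e-06) and *Rspo1* (0.58 ± 0.22, adjusted p = 0.0313), and *Rspo1* lost the call in DESeq2 (adjusted p = 0.0518) and without replicate 1 or 2 of 1 h or replicate 1 of 24 h (adjusted p 0.112, 0.0809 and 0.129). *Lgr6* had a log2 fold change of -0.08 ± 0.23 (adjusted p = 0.79), with 1.90 to 3.56 CPM at 1 h and 1.91 to 3.02 CPM at 24 h.

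The treatment comparison asked how the loss of WNT secretion altered these genes over the same day. *Axin2*, the usual reporter gene of canonical WNT activity, went from 100 to 112 CPM in DMSO to 25.5 to 28.2 CPM in C59 at 6 h, 3.91-fold lower (-1.97 ± 0.06, adjusted p = 7.55e-11 in edgeR), was still 2.74-fold lower at 12 h, and at 18 h and 24 h had log2 fold changes of -0.16 ± 0.09 and -0.08 ± 0.07, neither of which passed. A small decrease of *Axin2* passed at 1 h, with 98.7 to 106 CPM in C59 and 117 to 122 CPM in DMSO (-0.19 ± 0.04, adjusted p = 0.0282 in edgeR). Of the 7 genes 0 passed at 1 h in edgeR and 0 in DESeq2, where in edgeR 2, *Rspo2* and *Rspo3*, had an unadjusted p under 0.05 (0.0116 and 0.0133). The counts at 6, 12, 18 and 24 h were 4, 6, 1 and 2. In the order of time, the shares of all genes tested that passed were 2.75%, 19.6%, 47.5%, 7.08% and 6.44%. With the fold threshold of 1 on the log2 scale the counts were 0, 2, 4, 1 and 0, beside 0.283%, 1.17%, 4.95%, 1.29% and 0.819% of all genes. Leaving out 1 of the libraries named here moved the count of all genes that passed by more than 1.5 times at 1, 6, 18 and 24 h. At 12 h it moved less, with 6330 genes that passed and 5135 to 6151 with 1 library left out. At 18 h 949 genes passed, 2199 without C59 replicate 3, and 353 without C59 replicate 2. The count of 18 h was 286, 321 and 190 without DMSO replicates 1, 2 and 3. At 24 h the count was 881, or 519 without C59 replicate 2. It was 265, 343 and 333 without DMSO replicates 1, 2 and 3. At 1 h it was 360, or 184, 189 and 226 without C59 replicates 1, 2 and 3 and 210 and 677 without DMSO replicates 2 and 3. At 6 h it was 2565, or 1562 without C59 replicate 1. Without C59 replicate 3 of 18 h the background share of that hour was 16.2%, and 1.43% with the fold threshold. CPM of the treatments did not overlap for 2, 5, 5, 2 and 5 of the 7 genes, beside 21.6%, 36.4%, 57.4%, 34.0% and 27.6% of all genes tested.

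**Figure D2:**
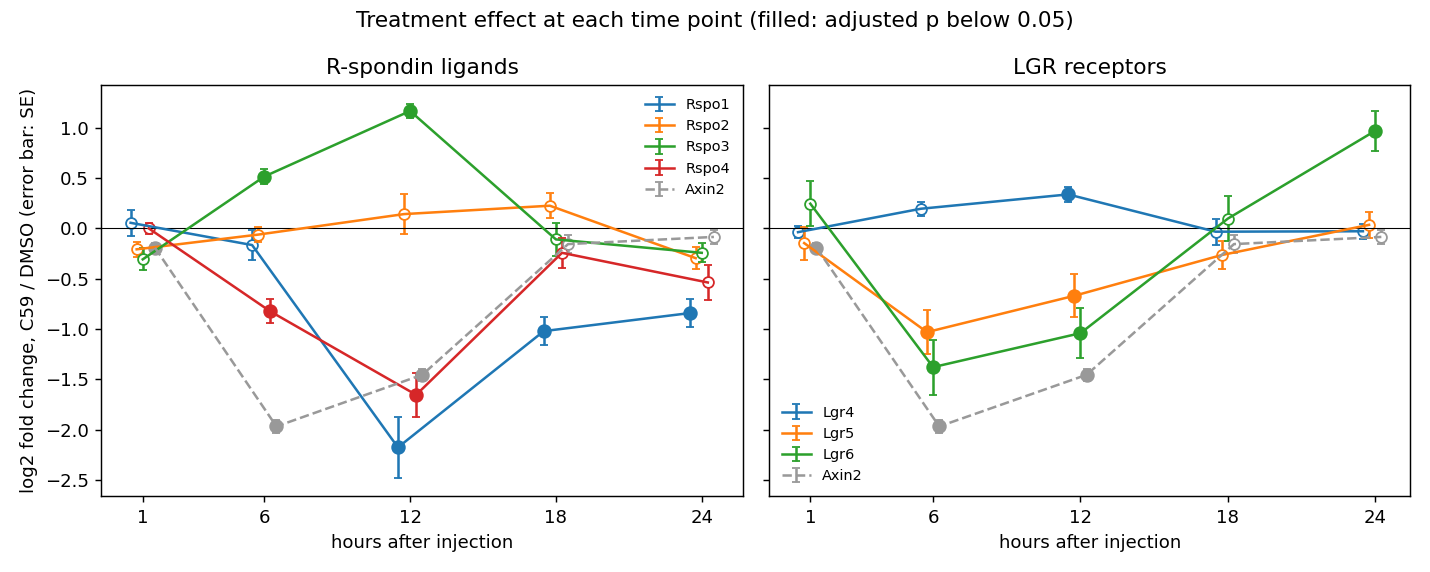
log2 fold change of C59 over DMSO with its SE against hours after injection, for the 4 R-spondins on the left and the 3 LGR receptors on the right, each with *Axin2* (dashed grey); filled points have an adjusted p below 0.05. *Rspo1* and *Rspo4* reach their lowest values at 12 h (-2.18 and -1.65), *Rspo3* its highest (1.17), and *Lgr5* and *Lgr6* their lowest at 6 h (-1.03 and -1.38).

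*Rspo4*, the most abundant R-spondin of early control buds, was lower in all C59 libraries than in any DMSO library from 6 h on. At 6 h it had 43.0, 34.0 and 35.0 CPM in DMSO and 18.6, 18.7 and 26.1 CPM in C59, and decreased 1.77-fold (-0.82 ± 0.12, adjusted p = 0.000304 in edgeR). At 12 h the values were 24.3, 17.2 and 14.7 CPM against 6.43, 7.32 and 4.33 CPM, 3.15-fold lower (-1.65 ± 0.22, adjusted p = 0.000138). The groups were close at 18 h, with 9.70, 10.2 and 9.45 CPM in DMSO and 8.90, 6.70 and 9.28 CPM in C59 (-0.24 ± 0.15, adjusted p = 0.345, and -0.32 ± 0.14, adjusted p = 0.16, without the C59 library that stood apart). At 24 h 4.36, 5.75 and 4.58 CPM stood against values from 2.997 to 3.82 CPM (-0.54 ± 0.18, adjusted p = 0.0918), which did not pass.

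*Rspo1* responded later and its difference lasted longest. At 6 h C59 libraries had 9.78, 14.3 and 9.07 CPM and DMSO libraries 11.5, 12.3 and 13.2 CPM, which overlapped (-0.17 ± 0.15, adjusted p = 0.483 in edgeR). At 12 h it was 4.52-fold lower, the lowest fold change of the 7 genes at any time point (-2.18 ± 0.30, adjusted p = 0.000187), with 3.37, 4.13 and 5.22 CPM in C59. The DMSO libraries of that time point were far apart, 18.6, 27.7 and 10.8 CPM, yet all lay above C59. *Rspo1* remained lower at 18 h, with 6.39, 8.17 and 8.44 CPM against 16.2, 15.6 and 14.7 CPM (-1.02 ± 0.14, adjusted p = 0.00478), and at 24 h, with 11.6, 8.54 and 9.53 CPM against 20.9, 17.0 and 15.5 CPM (-0.84 ± 0.14, adjusted p = 0.00416). It was the only one of the 7 genes that passed at 18 h, also without the third C59 library (-1.09 ± 0.13, adjusted p = 0.00153), which left the other 6 genes with adjusted p from 0.0841 to 0.761.

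*Rspo3* was the R-spondin that increased. At 6 h it had 18.6, 19.1 and 17.9 CPM in DMSO and 27.3, 25.1 and 27.3 CPM in C59 (0.52 ± 0.07, adjusted p = 0.000256 in edgeR). At 12 h DMSO libraries were tightly grouped at 17.8, 18.3 and 17.7 CPM and C59 libraries had 37.5, 41.3 and 43.3 CPM, 2.24-fold more (1.17 ± 0.07, adjusted p = 1.36e-06). No difference passed at 18 h, with 21.9, 21.7 and 14.5 CPM in C59 and 21.1, 21.4 and 20.02 CPM in DMSO (-0.11 ± 0.16, adjusted p = 0.724), and the low value of 14.5 CPM was that of the library that stood apart, without which the log2 fold change was 0.07 ± 0.08 (adjusted p = 0.607). At 24 h all C59 libraries, 18.7, 21.2 and 23.4 CPM, were below DMSO with 23.8, 26.6 and 24.4 CPM, but the difference did not pass (-0.24 ± 0.09, adjusted p = 0.147). A total of 404 exon bases, 13.1% of the exons of *Rspo3*, overlap the antisense gene *Gm48159*; the strand of counting was not given, so reads of the pair cannot be told apart, and *Gm48159* itself had 0 to 1 counts per library.

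*Rspo2*, the limb outgrowth factor, did not pass at any time point. Its log2 fold changes were, in the order of time, -0.21 ± 0.07, -0.06 ± 0.08, 0.14 ± 0.20, 0.23 ± 0.12 and -0.30 ± 0.11, with adjusted p in edgeR of 0.149, 0.631, 0.574, 0.304 and 0.138. At 12 h the C59 libraries spread from 11.8 to 23.3 CPM around DMSO values of 15.5, 17.2 and 16.4 CPM. Without the C59 library of 18 h that stood apart its value at that hour was 0.30 ± 0.10 (adjusted p = 0.0841). Without the lowest C59 library of 12 h, replicate 3, the log2 fold change was 0.39 ± 0.10 and passed (adjusted p = 0.0124).

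Added up, R-spondin RNA changed in makeup more than in amount at 12 h. The summed FPKM of the 4 genes were 19.6 to 27.7 in DMSO and 23.9 to 25.9 in C59 at 12 h, which overlapped. *Rspo3* held 28.4% ± 3.84 (SD, n = 3) of that sum in DMSO and 64.2% ± 6.26 in C59. *Rspo1* and *Rspo4* together gave way: *Rspo1* held 31.3% ± 8.43 in DMSO and 7.17% ± 2.02 in C59, and *Rspo4* 22.2% ± 4.82 and 7.56% ± 1.46. The share of *Rspo2* was 18.1% ± 3.73 in DMSO and 21.03% ± 7.06 in C59. At 18 h the sum was 19.9 to 22.1 FPKM in DMSO and 16.8 to 19.6 FPKM in C59 without overlap, or 17.9 to 19.6 without the third C59 library. At 24 h the sum was 20.2 to 22.8 FPKM in DMSO and 15.1 to 16.6 FPKM in C59, also without overlap. These sums and shares were not tested.

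**Figure D3:**
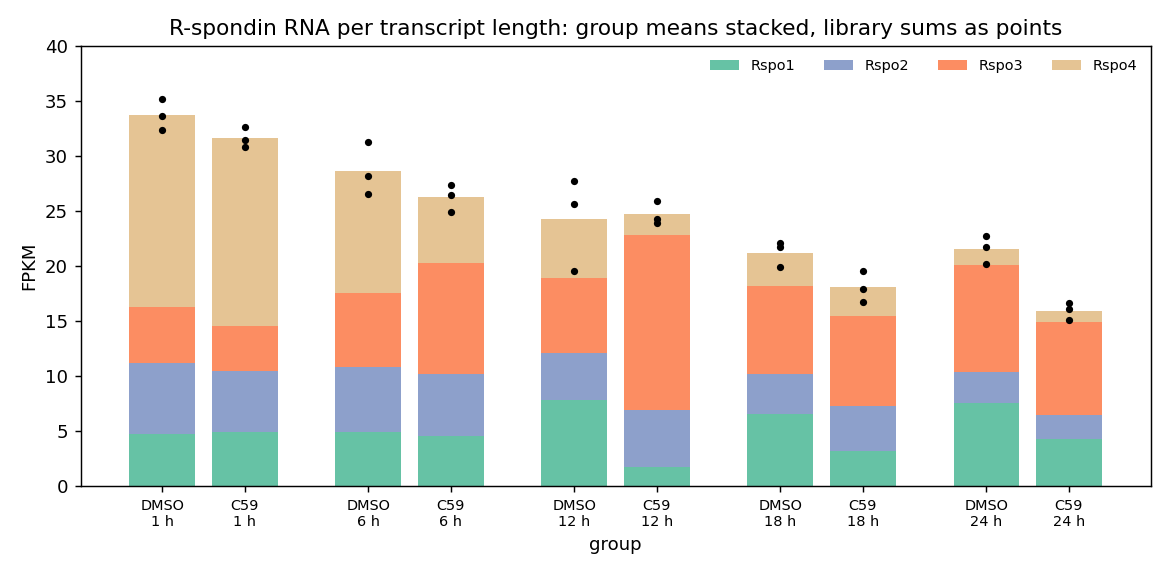
FPKM of the 4 R-spondins in each of the 10 groups; stacked bars are group means of 3 libraries and black points the sums of single libraries. The sums at 12 h overlap between DMSO and C59 (19.6 to 27.7 and 23.9 to 25.9 FPKM), while the *Rspo3* part of the bar widens in C59 and those of *Rspo1* and *Rspo4* shrink.

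Of the receptors, *Lgr6* and *Lgr5* decreased early. *Lgr6* had 0.752, 1.33 and 1.30 CPM in C59 at 6 h, below all DMSO libraries of 6 h (2.44 to 3.56 CPM), and was 2.60-fold lower (-1.38 ± 0.27, adjusted p = 0.00315 in edgeR). At 12 h 1.05, 1.02 and 1.52 CPM stood against 2.43, 2.56 and 2.35 CPM (-1.04 ± 0.25, adjusted p = 0.00603). The groups mixed at 18 h (adjusted p = 0.833; 0.13 ± 0.25, adjusted p = 0.761, without the third C59 library), and at 24 h the direction was opposite: C59 libraries had 5.33, 4.35 and 5.44 CPM and DMSO libraries 1.91, 2.71 and 3.02 CPM (0.97 ± 0.20, adjusted p = 0.0139). This late increase was lost without the first DMSO library of 24 h (0.82 ± 0.20, adjusted p = 0.0606).

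*Lgr5* had 1.92, 2.37 and 2.86 CPM in C59 and 3.96, 6.07 and 4.60 CPM in DMSO at 6 h, 2.04-fold lower (-1.03 ± 0.22, adjusted p = 0.00501 in edgeR). At 12 h, with 4.16, 4.71 and 6.38 CPM against 6.18, 10.3 and 7.60 CPM, the treatments overlapped by 1 library and the test was passed narrowly (-0.67 ± 0.21, adjusted p = 0.0242); the call was lost in each of 3 fits without 1 library, C59 replicate 1 or 2 or DMSO replicate 2 (adjusted p 0.0798, 0.0844 and 0.0912). It did not pass at 18 h (adjusted p = 0.295; -0.22 ± 0.15, adjusted p = 0.319, without the third C59 library). At 24 h C59 libraries had 10.3 to 14.9 CPM and DMSO libraries 11.6 to 13.5 CPM (0.04 ± 0.13, adjusted p = 0.906).

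*Lgr4*, the abundant receptor, was the only one of the 3 that increased during inhibition. At 12 h it had 86.2, 86.1 and 72.6 CPM in C59 and 61.6, 63.0 and 67.0 CPM in DMSO, 1.26-fold higher (0.34 ± 0.07, adjusted p = 0.00302 in edgeR). At 6 h C59 libraries had 67.6 to 70.5 CPM and DMSO libraries 53.8 to 65.7 CPM (0.20 ± 0.07, adjusted p = 0.0661), a difference that passed with upper-quartile scaling, without a filter and without DMSO replicate 2 of 6 h (adjusted p 0.0398, 0.0417 and 0.00496). Log2 fold changes at 18 h and 24 h were -0.03 ± 0.13 and -0.03 ± 0.07, and that of 18 h was 0.09 ± 0.08 (adjusted p = 0.489) without the third C59 library.

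Sex and treatment could be separated in part at 12 h, where 2 DMSO and 2 C59 libraries had summed Y-linked FPKM below 1, a subset added after the data had been seen. In these 4 libraries alone log2 fold changes were -1.69 ± 0.25 for *Rspo1*, 1.23 ± 0.08 for *Rspo3*, -1.76 ± 0.26 for *Rspo4*, 0.28 ± 0.09 for *Lgr4* and -0.94 ± 0.31 for *Lgr6*, all with adjusted p below 0.05 in edgeR. *Lgr5* (-0.34 ± 0.20, adjusted p = 0.197) did not pass.

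Whether the effect of C59 itself changed between neighbouring time points was tested as an interaction on 12 libraries. Sex and treatment cannot be told apart at 1 h and 6 h, and sex was not balanced at 24 h, so changes that involve these hours may hold a difference of sex as well. The members past the fold threshold as well numbered 1, 1, 3 and 0 over the 4 intervals, beside 1.34%, 1.89%, 2.09% and 1.27% of all genes. Between 1 h and 6 h 4 of the 7 genes passed the test, beside 13.0% of all genes: the effect on *Rspo3* rose by 0.83 ± 0.12 on the log2 scale, and those on *Rspo4*, *Lgr5* and *Lgr6* fell by 0.82 ± 0.14, 0.88 ± 0.27 and 1.62 ± 0.36. Between 6 h and 12 h 3 passed, beside 18.1%: *Rspo1* (-2.01 ± 0.38), *Rspo4* (-0.83 ± 0.27) and *Rspo3* (0.65 ± 0.10). Between 12 h and 18 h 3 passed, beside 8.49%, in the opposite directions: *Rspo3* (-1.27 ± 0.18), *Rspo4* (1.41 ± 0.29) and *Lgr6* (1.14 ± 0.32). The effect on *Rspo1* weakened 2.23-fold in that interval, which did not pass in edgeR (adjusted p = 0.0672) but did in DESeq2 (0.0193) and without DMSO replicate 3 of 12 h (0.009). Between 18 h and 24 h 1 passed, beside 6.96%, *Rspo2* with -0.53 ± 0.15 (adjusted p = 0.0479), and the increase of the *Lgr6* effect, 0.87 ± 0.30, did not (adjusted p = 0.0964). Without the C59 library of 18 h that stood apart, the changes from 12 h to 18 h were -1.10 ± 0.10 for *Rspo3*, 1.33 ± 0.31 for *Rspo4* and 1.17 ± 0.35 for *Lgr6*, beside 15.3% of all genes that passed. Those from 18 h to 24 h were -0.61 ± 0.14 for *Rspo2* (adjusted p = 0.0115) and 0.83 ± 0.32 for *Lgr6* (adjusted p = 0.0955), beside 14.8%. Of the 12 fits that each left out 1 library, 10 lost the change of *Lgr5* from 1 h to 6 h, 6 that of *Rspo4* from 6 h to 12 h, 8 that of *Lgr6* from 12 h to 18 h and 10 that of *Rspo2*, and 0 lost those of *Rspo1* and *Rspo3*.

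The ligases that R-spondins act on moved in part with the receptors. *Znrf3* decreased at 6 h (-0.57 ± 0.11, adjusted p = 0.00306 in edgeR) and 12 h (-0.51 ± 0.07, adjusted p = 0.00028). *Rnf43* decreased at 6 h (-0.82 ± 0.23, adjusted p = 0.021) and had 0.46 ± 0.18 at 12 h (adjusted p = 0.0601), and its effect changed by 1.28 ± 0.31 between these time points (adjusted p = 0.00831). With all libraries *Rnf43* had 0.65 ± 0.17 at 18 h (adjusted p = 0.0542 in edgeR) and 0.34 ± 0.18 at 24 h (adjusted p = 0.299). Those of *Znrf3* were 0.12 ± 0.12 and -0.0036 ± 0.09, and no ligase passed at these hours. Of the 17 genes of the WNT receptor complex (both ligases, Frizzled and LRP receptors and Dishevelled adaptors), 0 rose and 1 fell after 1 h, 3 and 4 after 6 h, 7 and 4 after 12 h, 1 and 1 after 18 h (7 and 1 without the third C59 library), and 4 and 0 after 24 h. The shares of all genes that passed in either direction were 2.75%, 19.6%, 47.5%, 7.08% (16.2% without that library) and 6.44%. Median log2 fold changes of the complex from 6 h on were 0.07, 0.16, 0.22 and -0.00444, and those of all genes tested 0.00501, 0.0175, 0.00124 and 0.00371. *Fzd10*, a WNT receptor gene, had the lowest fold change at 6 h and 12 h (-1.99 and -2.08), and the highest were those of *Fzd8* at 6 h (0.63) and *Fzd5* at 12 h (1.51), both Frizzled genes. Among 8 heparan sulfate proteoglycans tested, 0 rose and 2 fell at 6 h (lowest *Sdc1*, -0.52, a syndecan) and 2 rose and 3 fell at 12 h, from *Sdc2* (-0.67) to *Sdc4* (0.70). These counts stood beside 19.6% and 47.5% of all genes that passed.

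**Figure D4:**
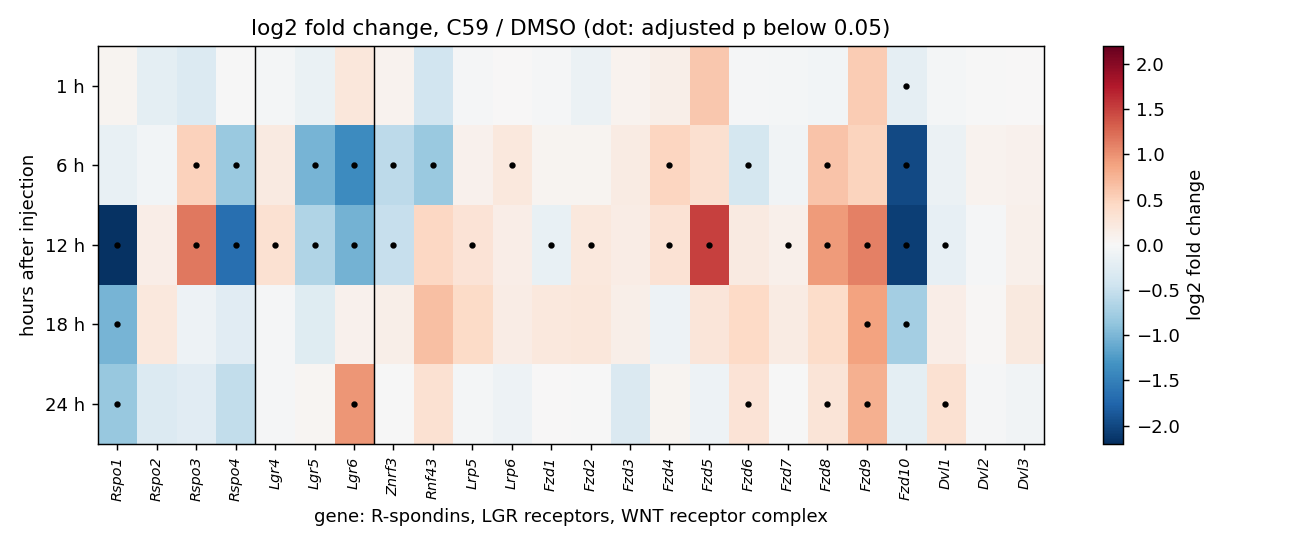
Heat map of log2 fold changes of C59 over DMSO; rows are time points, columns the 4 R-spondins, the 3 LGR receptors and 17 genes of the WNT receptor complex, and a dot marks an adjusted p below 0.05. The deepest blue cells are *Rspo1* at 12 h (-2.18) and *Fzd10* at 6 h and 12 h (-1.99 and -2.08), and *Rspo3* (1.17) and *Fzd5* (1.51) are red at 12 h.

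All 10 WNT target genes listed fell at 6 h and at 12 h, with medians of -1.69 and -1.99; the lowest were *Sp5* at 6 h (-4.50) and *Notum* at 12 h (-3.75), and the highest *Lef1* at both (-0.83 and -0.98). Their summed FPKM were 53.4 to 58.0 in C59 against 148 to 156 in DMSO at 6 h. At 18 h the sums were still lower, 121 to 134 against 148 to 158, or 121 to 131 without the third C59 library. At that hour 0 of 10 rose and 4 fell (lowest *Dkk1*, -2.23), also 0 and 4 without the third C59 library. At 24 h the sums were 155 to 175 against 159 to 164, when 1 rose and 2 fell. The shares of all genes that passed were 19.6%, 47.5%, 7.08% and 6.44% from 6 h on, and 16.2% at 18 h without the third C59 library.

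Markers of other cell types were counted at the same hours, against the shares of all genes that passed given above. The summed FPKM of 9 apical ectodermal ridge markers were 24.1 to 25.0 in C59 and 41.5 to 46.3 in DMSO at 6 h and 21.8 to 27.9 against 33.2 to 38.9 at 12 h, the hours at which *Rspo4*, *Lgr5* and *Lgr6* fell. At 6 h 4 of 8 tested fell and 0 rose, and 3 of 7 fell and 2 rose at 12 h. Those that passed ran from *Fgf4* (-3.41) to *Sp8* (-0.59) at 6 h and from *Fgf8* (-3.17) to *Trp63* (0.47) at 12 h. *Fgf8* reached the highest level of the list, 28.3 FPKM, followed by *Trp63* with 11.9, so the sums follow *Fgf8* in part. The paper reports that β-catenin was lost from *Fgf8* enhancers after C59, so these sums are not a count of ridge cells. Ridge marker sums were also lower at 18 h, when *Rspo4*, *Lgr5* and *Lgr6* did not pass, with 25.5 to 28.9 against 29.7 to 32.4. Of 8 tested, 3 had fallen and 1 had risen (4 and 1 without the third C59 library). At 24 h *Lgr6* was higher in C59, and *Rspo4* and *Lgr5* did not pass. Ridge marker sums at that hour were higher in C59, 28.4 to 32.0 against 26.5 to 27.0, with 1 of 7 tested risen and 1 fallen. Those of 8 cartilage progenitor markers were 364 to 485 in C59 and 178 to 188 in DMSO at 12 h, the time of the highest *Rspo3* level, with 7 of 8 risen and 0 fallen. They stayed higher in C59 when *Rspo3* had log2 fold changes of -0.11 and -0.24, with 333 to 378 against 201 to 244 at 18 h and 317 to 354 against 263 to 293 at 24 h. At these hours 4 and 3 of them had risen (5 at 18 h without the third C59 library). Limb mesenchyme markers summed to 413 to 429 FPKM in C59 and 599 to 624 in DMSO at 12 h, with 2 of 8 risen and 6 fallen. Mesenchyme sums were also lower in C59 at 6 h, 434 to 457 against 631 to 661, with 1 risen and 6 fallen. At 18 h they were 493 to 525 against 566 to 592, with 0 risen and 4 fallen, also without the third C59 library. At 24 h they were 545 to 576 against 583 to 600, with 0 risen and 3 fallen. The sum of 12 surface ectoderm markers was higher in C59 at 12 h, when *Lgr6* was lower (178 to 249 against 128 to 144 FPKM, 7 risen). It was also higher at 18 h, when *Lgr6* did not pass (173 to 219 against 131 to 145, 5 risen, and 173 to 175 with 7 risen without the third C59 library). The same held at 24 h, when *Lgr6* was higher (205 to 230 against 162 to 171, 4 risen). Macrophage markers, at 16.6 to 17.8 against 8.78 to 10.3 FPKM at 12 h, rose in 6 of 6 cases, Schwann precursor markers in 3 of 4, muscle progenitor markers in 3 of 7 with 4 fallen and endothelial markers in 3 of 6, beside 47.5% of all genes that passed at 12 h in either direction. Macrophage sums stayed higher in C59 at 18 h, 21.5 to 25.5 against 15.05 to 15.6 (21.5 to 21.7 without the third C59 library). At 24 h they were 21.7 to 24.3 against 15.4 to 18.2. Erythroid markers fell in 4 of 7 cases at 6 h, beside 19.6% of all genes, and rose in 3 of 7 at 1 h, beside 2.75%. The part of these cell types in the changes of the R-spondins and LGR receptors was not tested.

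Ranked by mean CPM over all 10 groups, the span from the highest to the lowest group was 17.5-fold for *Rspo4* (DMSO 1 h to C59 24 h), 5.30-fold for *Lgr5* (C59 24 h to C59 6 h), 4.49-fold for *Rspo1* (DMSO 12 h to C59 12 h), 4.47-fold for *Lgr6* (C59 24 h to C59 6 h), 3.65-fold for *Rspo3* (C59 12 h to C59 1 h), 3.07-fold for *Rspo2* (DMSO 1 h to C59 24 h) and 1.62-fold for *Lgr4* (DMSO 24 h to C59 1 h). Neighbours in these orders mostly overlapped: of 9 neighbouring pairs, the libraries were separate in 5 for *Rspo4*, 4 for *Rspo3*, 3 each for *Rspo1* and *Rspo2*, 2 each for *Lgr5* and *Lgr6* and 1 for *Lgr4*. *Rspo3* in C59 at 12 h, *Lgr6* in C59 at 24 h and *Rspo2* in DMSO at 1 h were each above every library of the group ranked next.

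The 30 libraries differ in depth, time and treatment, and these differences enter every correlation across them. Across these libraries the genes most like *Rspo4* in log2(CPM + 1) were *Prtg*, *Igdcc3* and *Scube1* (Pearson r 0.981, 0.977 and 0.970). Those most like *Lgr5* were *Nbl1*, *Dkk2* and *Sncaip* (0.960, 0.958 and 0.957), and those most like *Rspo3* were *Pdcd4*, *Plpp3* and *Rasl11b* (0.949, 0.938 and 0.937). *Lgr4* was most like *Sertad2*, *Flrt2* and *Rab22a* (0.949, 0.947 and 0.946) and *Rspo2* most like *Zbtb16*, *Baz2a* and *Fignl2* (0.933, 0.923 and 0.922). Likeness was lower for *Rspo1*, with *Srebf2*, *Sqle* and *Scd1* (0.872, 0.849 and 0.837), and for *Lgr6*, with *Txndc5*, *Znhit6* and *Bmp7* (0.867, 0.845 and 0.840). Among the 7 genes themselves r ran from -0.900 for *Rspo4* with *Lgr4* to 0.830 for *Rspo2* with *Rspo4*.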

How the data were processed

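PolyA RNA of 30 forelimb bud libraries was measured, in 10 groups taken from the sample labels. Per the labels, Cutadapt 1.16 was used for trimming and STAR 2.7.0e for mapping to mm10; the authors' deposited raw counts per gene were written during mapping, with the strand setting not given in the sources used here. The deposited FPKM values were made by the authors with Cufflinks 2.2.1, unstranded, with multi-read and bias correction.

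Each count comparison used a quasi-likelihood F test of edgeR (4.0.16, R 4.3.3) with TMM scaling, after filterByExpr (count of at least 10, total of at least 15), on protein-coding autosomal genes of GENCODE M21, with 3 against 3 libraries per time point, 12 for interactions and 15 for DMSO. Two-sided p were adjusted by Benjamini-Hochberg over all genes tested, with a threshold of 0.05, and the fold threshold was 1 on the log2 scale. Standard errors came from the F statistic. Depth was 18188636 to 38974885 counts. Alternatives used DESeq2 1.42.0 and limma 3.58.1. The code was tested on simulated data.

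The members and gene lists were chosen with earlier results of these data known. Genes outside the members were named as the extremes of a list among those that passed, as *Axin2*, *Znrf3* and *Rnf43*, as the 3 most correlated genes per member, and for tissue checks.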

Additional observations from a re-analysis of the deposited data

Results flagged for a closer look

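The effect of C59 differed between neighbouring time points by the edgeR interaction test for 11 combinations of gene and interval. From 1 h to 6 h the log2 effect changed by 0.83 for *Rspo3*, -0.82 for *Rspo4*, -0.88 for *Lgr5* and -1.62 for *Lgr6*. From 6 h to 12 h it changed by -2.01 for *Rspo1*, 0.65 for *Rspo3* and -0.83 for *Rspo4*. From 12 h to 18 h it changed by -1.27 for *Rspo3*, 1.41 for *Rspo4* and 1.14 for *Lgr6*, and from 18 h to 24 h by -0.53 for *Rspo2*. Some calls were lost when 1 library was left out, in 12 fits each. That of *Lgr5* was lost in 10 fits and that of *Rspo4* from 6 h to 12 h in 6. The call of *Lgr6* from 12 h to 18 h was lost in 8 and that of *Rspo2* in 10.

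Y-linked genes were in the FPKM table and not in the count table used for the tests, so no comparison of the treatments tested them; the libraries of 12 h compared on their own were chosen by their level. In the C59 libraries of 6 h the summed FPKM of 4 Y-linked genes were 20.3, 19.8 and 33.2, whereas all DMSO libraries of 6 h were listed at 0, so that sex and treatment cannot be told apart there.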

How the results depend on the processing

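For the members and the other named genes, no log2 fold change reversed its sign where the main fit or the alternative passed the test. Values that passed in neither could change sign. *Rspo3* at 18 h ranged from -0.21 to 0.07 and *Lgr4* at 18 h from -0.12 to 0.09. At 6 h the count of members called was 2, and 0 with limma on log2(FPKM + 1) or log2(FPKM + 0.1) and 4 with no minimum fold change. At 18 h it was 1, and 0 with upper-quartile factors and with limma at either pseudocount. At 24 h it was 0, and 2 with no minimum fold change; without the fold threshold 2 passed, and 1 with limma on log2(FPKM + 0.1). For the effect change from 12 h to 18 h 3 passed, and 5 in a fit of all 30 libraries. From 18 h to 24 h 1 passed, and 0 without a filter, in the fit of all 30 libraries and with the replicate block. Members called between DMSO 1 h and 24 h numbered 3, and 1 with limma on log2(FPKM + 1). The cause was not tested, except that a pseudocount shrinks fold changes of low genes by its construction.

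With 1 library left out at a time, members called ranged over 0 to 0 at 1 h, 1 to 3 at 6 h, 3 to 4 at 12 h, 0 to 1 at 18 h, 0 to 1 at 24 h and 3 to 3 for DMSO, and members that passed over 0 to 0, 4 to 5, 5 to 7, 1 to 1, 1 to 2 and 5 to 6. For the effect changes, called members ranged over 1 to 3, 1 to 1, 2 to 3 and 0 to 0, and passed members over 3 to 4, 2 to 3, 2 to 3 and 0 to 1, in time order. *Rspo1* at 18 h dropped under the fold threshold without DMSO replicate 1 (-0.99) or C59 replicate 1 (-0.91), and *Lgr5* at 6 h without DMSO replicate 2 (-0.83) or C59 replicate 1 (-0.88). *Lgr6* at 12 h did so without C59 replicate 1 (-0.96) or 2 (-0.92), and *Rspo4* at 6 h passed it without C59 replicate 3 (-1.002). The change of *Rspo4* from 6 h to 12 h was also lost in DESeq2 (adjusted p = 0.0946) and with upper-quartile factors (0.063), that of *Lgr6* from 12 h to 18 h with upper-quartile factors (0.0535) and without a filter (0.0597), that of *Lgr5* from 1 h to 6 h in the fit of all 30 libraries (0.0846), and the call of *Lgr5* at 12 h with limma (0.0718 and 0.0758).

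Replicate numbers showed no clear pairing of the samples: deviations of same-numbered libraries correlated at -0.250 to 0.151 over 15 pairs, 1 of them over 0.1. At 12 h the same-numbered correlations, 0.027, 0.096 and 0.151, each exceeded those with other numbers, at most -0.010, 0.032 and -0.063. With 3 libraries per group such values cannot exclude a pairing. With the replicate block the calls of *Lgr5* from 1 h to 6 h, *Lgr6* from 12 h to 18 h and *Rspo2* from 18 h to 24 h were lost.

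Counts over all genes moved more; ranges in brackets are over the alternatives other than leaving out a library. With the fold threshold they were 37 at 1 h (5 to 76), 153 at 6 h (27 to 227), 660 at 12 h (158 to 805), 173 at 18 h (31 to 268) and 112 at 24 h (24 to 150), and 1656 for DMSO (524 to 1860). Without it they were 360 (178 to 580), 2565 (1463 to 2742), 949 (478 to 3855) and 881 (429 to 1098) at 1, 6, 18 and 24 h, and 1736 (793 to 1772), 1162 (688 to 2491) and 960 (444 to 2307) for the effect changes from 1 h to 6 h, 12 h to 18 h and 18 h to 24 h. With 1 library left out, genes past the fold threshold ranged over 20 to 47, 121 to 161, 596 to 811, 77 to 194 and 79 to 104 in time order and 1637 to 1704 for DMSO, and genes that passed over 184 to 677, 1562 to 3125, 5135 to 6151, 190 to 2199 and 265 to 996, and for the effect changes over 1188 to 1965, 1803 to 2506, 656 to 2105 and 470 to 2057. The 18 to 132 counts of *Lgr6* per library limit its precision.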
